A study of Mus musculus with 16 samples.

Results

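In all, 9 genes of neuronal signalling were followed across the arrays: the complexins Cplx1, Cplx2 and Cplx3, the synaptotagmins Syt2, Syt6, Syt9 and Syt10, the calcium buffer Pvalb and the neurofilament gene Nefh. Every probe set (a short set of probes that reads 1 transcript) whose only gene symbol in the platform annotation is one of these 9 genes was taken, which gave 18 of the 34958 probe sets with a single symbol and of the 45101 on the array. RNA came from SINE KO mice, homozygous for a small deletion beside the start codon of the SINE-containing brain isoform of Pgc1α, and from their age-matched WT littermates on a C57BL/6J background. The KO line descends from a single founder and leaves the reference isoform of Pgc1α in place, so all groups keep that isoform. Ages are not given in the sources used here. Brains were freed of brain stem remnants by hand and divided into the cerebellum (cb) and everything else (Br, called the rest of the brain here). The 16 arrays fall into 8 groups of 2, which are KO and WT cerebellum of females and males, and KO and WT rest of the brain of females and males. Whether equal replicate numbers in the 2 brain parts mark 1 mouse is not given in the labels.

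PGC1α is a transcriptional coactivator that raises the expression of mitochondrial genes in muscle, liver and fat. In the mouse brain it is best known from fast-spiking interneurons, where Pvalb, Syt2, Cplx1 and Nefh have been described as depending on it. These genes serve fast synaptic signalling. Complexins bind the assembled SNARE complex that drives vesicle fusion, synaptotagmins are vesicle proteins of which several sense calcium and trigger that fusion, parvalbumin buffers calcium in the axon and soma, and neurofilaments set the calibre of the axon.

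The deposited table does not hold intensities. Each value is 1 of 5 distinct numbers, which correspond to the levels 2, 1, 0, -1 and -2. Level 2 was read as detected, level 1 as marginal and the others as not detected, a reading that no source used here states. It rests on genes of known behaviour: the 5 probe sets of Actb and the 3 of Gapdh, which every cell expresses, were at level 2 on all 16 arrays, and both probe sets of Eif2s3y, a Y-linked gene, were at level 2 on 0 female and all 8 male arrays. Of 3 probe sets of Xist, the RNA of the inactive X chromosome, 2 were detected on all 8 female and 0 male arrays, while the other was detected on all 8 female and all 8 male arrays, which this reading does not account for. A detected call shows that a transcript was seen, not how much of it there was, so genes called in both groups can have unequal levels. An array detected between 25517 and 28155 probe sets. In bulk tissue, fewer cells of a type and less RNA per cell cannot be told apart.

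The cerebellum label was checked against marker genes of the brain parts. Of 38 probe sets of cerebellum markers, 25 to 36 were detected on the cerebellum arrays and 20 to 30 on the rest-of-brain arrays. Barhl1, a transcription factor of cerebellar granule cells, had 1 probe set detected on all 8 cerebellum arrays and 0 rest-of-brain arrays. Of 21 probe sets of forebrain markers, 7 to 15 were detected on the cerebellum arrays and 16 or 17 on the rest-of-brain arrays, and 1 probe set each of Tbr1 and Emx1, cortical transcription factors, were detected on 0 of 8 cerebellum and 8 of 8 rest-of-brain arrays. The WT female cerebellum replicate 2 stood apart. It detected 15 forebrain probe sets, where the other 7 cerebellum arrays had 7 to 11, and 25 cerebellum probe sets, where the others had 34 to 36. The female cerebellum arrays also differed in 33 probe sets of brain stem and spinal cord markers, with 17 and 19 detected on the KO arrays, against 16 on WT replicate 1 and 3 on WT replicate 2, while the male cerebellum arrays had 4 each. Among these markers, the hindbrain and spinal cord patterning genes Hoxa5, Hoxb5, Hoxb6 and Hoxc5 had 1 probe set each detected on both KO and neither WT array of the female cerebellum, a stratum in which 0 of the 18 probe sets switched. On the rest-of-brain arrays, 1 probe set each of the markers Pax6, Otx1 and Eomes was detected in KO alone in females, and 1 each of Car8 and Cbln3 in WT alone in males.

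Complexin 3 was the gene among the 9 whose calls parted the brain parts, whereas its paralogs Cplx1 and Cplx2 were detected everywhere. The promoters of the 3 complexins are therefore shown, from 250 bases before to 50 bases after an annotated start site, together with the first of 2 listed for Syt2, which holds the only full estrogen-related receptor element found among the 8 genes with a window (Nefh was not searched). The estrogen-related receptors are nuclear receptors that PGC1α coactivates. Sequences are from RefSeq (GRCm38.p6), on the strand of the gene. They lie at chr9:57606232-57606531 on the minus strand for Cplx3, at chr5:108549978-108550277 on the minus strand for Cplx1, at chr13:54302306-54302605 on the plus strand for Cplx2 and at chr1:134646362-134646661 on the plus strand for Syt2. Capitals mark CACGTG (the E-box of basic helix-loop-helix factors) and AGGTCA (a nuclear receptor half-site) in the complexins, and TGACCTTGA, which is TCAAGGTCA read on the other strand, in Syt2.
Cplx3: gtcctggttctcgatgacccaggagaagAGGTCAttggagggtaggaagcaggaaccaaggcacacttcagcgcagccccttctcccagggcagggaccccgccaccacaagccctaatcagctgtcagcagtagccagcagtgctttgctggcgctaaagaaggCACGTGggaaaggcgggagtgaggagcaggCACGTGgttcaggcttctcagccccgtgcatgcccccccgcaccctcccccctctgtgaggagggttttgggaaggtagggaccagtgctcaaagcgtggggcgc
Cplx1: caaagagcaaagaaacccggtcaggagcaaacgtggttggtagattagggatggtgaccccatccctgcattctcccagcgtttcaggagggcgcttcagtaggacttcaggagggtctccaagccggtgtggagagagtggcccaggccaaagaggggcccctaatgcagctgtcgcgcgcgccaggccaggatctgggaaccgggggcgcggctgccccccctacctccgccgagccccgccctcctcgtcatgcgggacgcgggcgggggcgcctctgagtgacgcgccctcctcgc
Cplx2: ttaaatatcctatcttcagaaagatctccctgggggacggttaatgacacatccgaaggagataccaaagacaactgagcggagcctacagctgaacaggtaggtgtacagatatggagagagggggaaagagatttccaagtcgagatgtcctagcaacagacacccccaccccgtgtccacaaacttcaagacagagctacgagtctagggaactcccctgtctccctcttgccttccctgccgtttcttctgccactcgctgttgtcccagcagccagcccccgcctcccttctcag
Syt2: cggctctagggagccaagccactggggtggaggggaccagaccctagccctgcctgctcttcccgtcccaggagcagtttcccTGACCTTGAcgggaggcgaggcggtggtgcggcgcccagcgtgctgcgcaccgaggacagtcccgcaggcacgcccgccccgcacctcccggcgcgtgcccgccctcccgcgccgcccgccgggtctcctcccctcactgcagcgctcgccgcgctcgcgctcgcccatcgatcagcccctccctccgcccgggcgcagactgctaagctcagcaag

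The search covered 5 motifs on both strands: TCAAGGTCA, AGGTCA, which lies within it, the palindromic NRF1 element, the cyclic AMP element TGACGTCA and CACGTG. Of the 9 genes, 8 had at least 1 promoter window, 12 windows in all. Of the 3 Syt6 windows, 2 overlap and share the same AGGTCA and CACGTG, each counted in both. The Cplx3 window held 2 copies of CACGTG, starting at -85 and -55 relative to the start site, and 1 of AGGTCA at -222, and those of Cplx1 and Cplx2 held none of the 5 motifs. CACGTG was found in 3 of the 12 windows and in 7.15% of all 32851 windows of this length, and AGGTCA in 4 of 12 and in 16.3% of all. TCAAGGTCA was found in 1 of 12, that of Syt2 with its first base at -167, and in 0.423% of all. The NRF1 element and TGACGTCA were found in 0 of the 12 windows, against 0.971% and 1.79% of all. The complexin windows also differed in CpG dinucleotides, with 11 in Cplx3, 24 in Cplx1 and 9 in Cplx2, where the median over all windows was 7. The Cplx2 window lies inside the span of its gene, so the sequence before the outer end of that gene was not searched. Those of Cplx1 and Cplx3 lie across the outer end, so the complexin windows are compared at unlike positions. A match is a description of the sequence, and binding was not measured.

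Of the 18 probe sets, 11 (61.1%) were detected on all 16 arrays, 3 on none and 4 on some. Over all probe sets with a single symbol, 52.5% were detected on all arrays, 24.4% on none and 23.1% on some. Each array detected 12 to 14 of the 18, with 12 to 14 in the cerebellum (median 13) and 13 or 14 in the rest of the brain (median 14), and with 12 to 14 in KO (median 13) and 12 to 14 in WT (median 14). The groups overlapped in both comparisons. The median difference in arrays detected between cerebellum and rest of the brain was 0 for the 18 probe sets and 0 for all 45101.

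**Figure D1:**
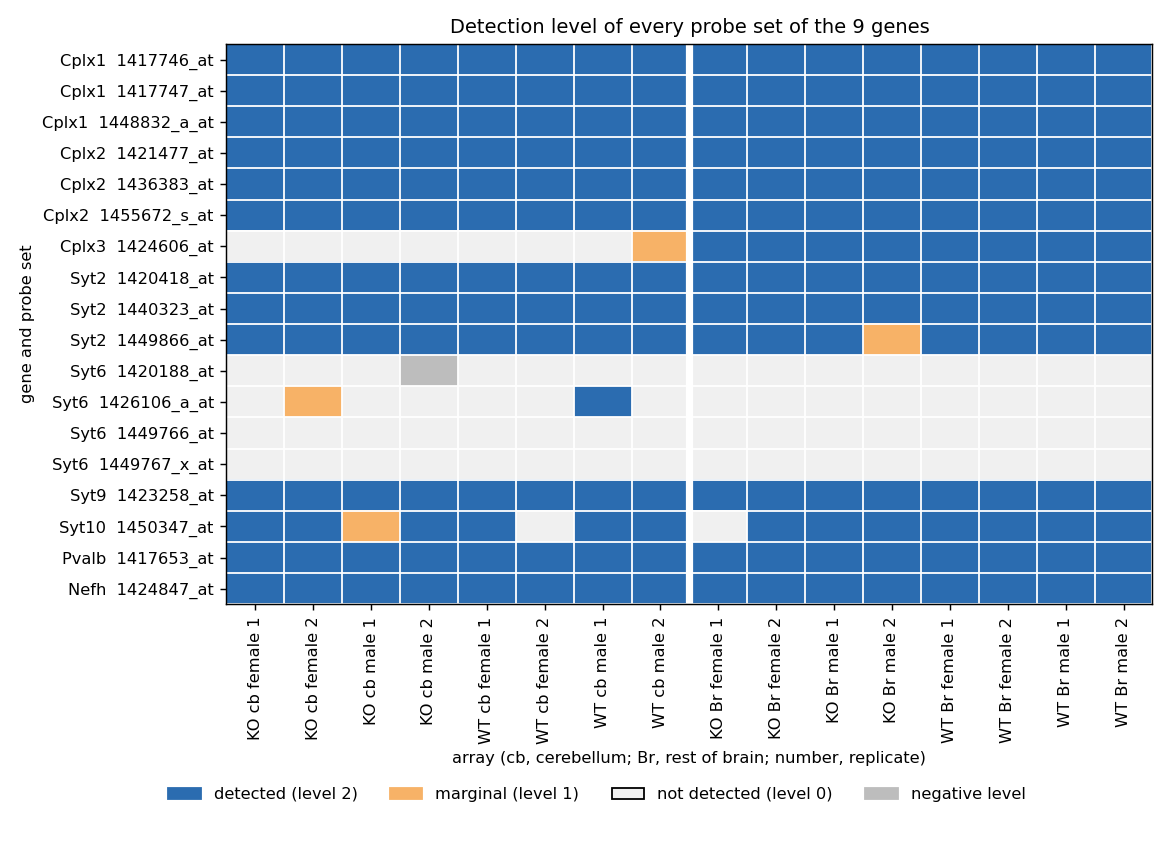
Detection level of each of the 18 probe sets (rows, by gene) on each of the 16 arrays (columns, cerebellum left of the white bar, rest of the brain right of it, KO before WT within each). Blue cells are detected, orange marginal, pale not detected and grey at a negative level. The row of Cplx3 changes from pale to blue between the brain parts, with 1 orange cell, and 11 rows are blue throughout.

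Gene positions are those of RefSeq on GRCm38.p6. Among the complexins, Cplx1 (chr5:108518554-108550027) is the main form of fast central synapses. Its 3 probe sets were each at level 2 on all 8 cerebellum and all 8 rest-of-brain arrays, and so on all 8 KO and all 8 WT arrays. Cplx2 (chr13:54301964-54383923), the paralog found mostly in excitatory neurons, also had 3 probe sets, again at level 2 on every array. No arrangement of the arrays could therefore differ in the calls of either gene, and whether their levels differed between KO and WT cannot be told from calls. From intensities and RT-PCR, the paper reports higher Cplx2 in all of its SINE KO samples. It did not identify Cplx1 as changed on the arrays.

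Cplx3 (chr9:57599992-57606281), a lipid-anchored complexin known from retinal ribbon synapses and from deep cortical neurons, had 1 probe set, 1424606_at. In the cerebellum it was at level 0 on both KO female arrays, both KO male arrays, both WT female arrays and WT male replicate 1, and at level 1, marginal, on WT male replicate 2. In the rest of the brain it was at level 2 on all 8 arrays. The brain parts did not overlap, with 0 of 8 cerebellum arrays and 8 of 8 rest-of-brain arrays detected (Fisher's exact test, two-sided, p = 0.000155). Adjusted with Benjamini-Hochberg over all 45101 probe sets, that p became 0.0501, which does not pass 0.05, and the same test called 0 probe sets (0%) in the whole table, while 1247 (2.76%) had an unadjusted p under 0.05. The smallest p that 8 against 8 arrays can give is the one Cplx3 reached. When only the 3873 probe sets with enough variation to reach a p under 0.05 were tested, a filter blind to the grouping, Cplx3 passed (Fisher's exact test, adjusted p = 0.0043), as did 662 (17.1%) of them, 447 (11.5%) lower and 215 (5.55%) higher in the cerebellum. This test takes the 16 arrays as independent, although brains were divided into both parts and arrays of the 2 parts may share mice. With arrays paired by replicate number, the exact sign test called 0 of the 3873 (Cplx3 adjusted p = 0.154). Cplx3 had the smallest p these pairs allow, so this run cannot tell a lost difference from too few pairs.

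A complete switch of this kind, 0 of 8 cerebellum against 8 of 8 rest-of-brain arrays, was found for 115 of all 45101 probe sets (0.255%), or 1.02% of the 11269 detected on some arrays. The opposite switch was found for 25 (0.0554%). Cplx3 was thus 1 of the 18 probe sets and 1 of the 4 with variable calls, a single probe set from which no share can be read. A complete split must also appear in each genotype and sex. KO, WT, female and male arrays alone thus each had 0 of 4 cerebellum and 4 of 4 rest-of-brain arrays detected. These subsets add no further evidence, and the smallest exact p for 4 against 4 is 0.0286. Among the cerebellum arrays with Cplx3 at level 0 was WT female replicate 2, which had 15 forebrain marker probe sets detected. With marginal calls counted as detected, Cplx3 stood at 1 of 8 cerebellum and 8 of 8 rest-of-brain arrays (Fisher's exact test, adjusted p = 0.16 over all probe sets). The RefSeq annotation gives Lman1l as a synonym at this locus, and which transcript the probe set reads was not examined.

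**Figure D2:**
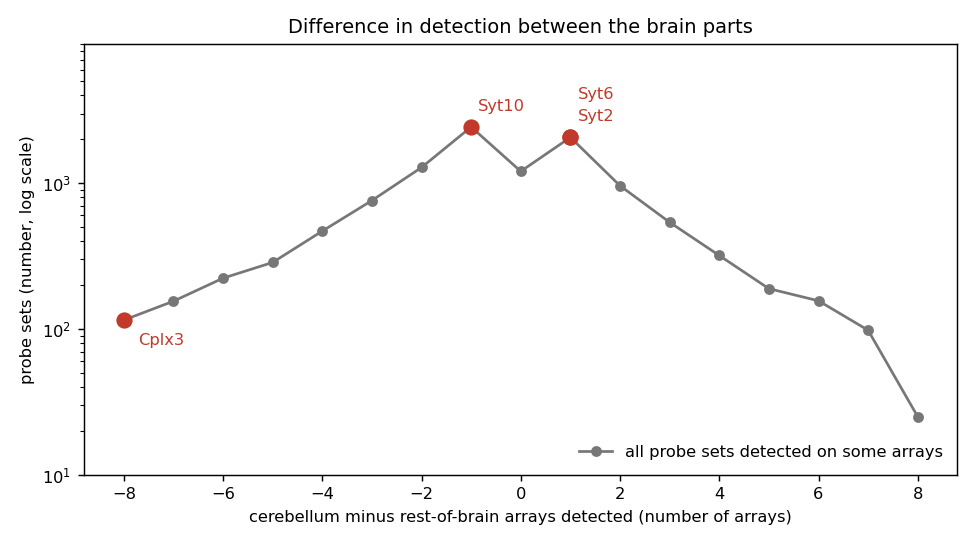
Number of probe sets (vertical axis, log scale) by cerebellum minus rest-of-brain arrays detected (horizontal axis, number of arrays) for the 11269 probe sets detected on some arrays. Red points mark where the 4 variable probe sets of the 9 genes fall: Cplx3 at -8 with 115 probe sets, Syt10 at -1, and Syt2 and Syt6 at 1.

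The genes with calls most like those of Cplx3 were sought over all probe sets with a single symbol. Those of 96 probe sets matched on all 16 arrays. Among these, Dlx1as, an antisense RNA of the Dlx1 homeobox locus, and Fgf13, a member of the fibroblast growth factor family, also shared the marginal call on WT male cerebellum replicate 2, and 3110039M20Rik differed by 1 level. The match rests on 16 arrays and on a single difference between tissues.

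Syt2 (chr1:134646534-134753149) encodes the fast calcium sensor of brain stem and inhibitory basket cell synapses. It had 3 probe sets, of which 1420418_at and 1440323_at were at level 2 on all 16 arrays. The third, 1449866_at, was at level 2 on all 8 cerebellum and 7 of 8 rest-of-brain arrays, and at level 1 on KO male rest of the brain replicate 2. It was accordingly detected on 7 of 8 KO and 8 of 8 WT arrays, and no arrangement of 15 detected arrays can give an exact p below 1. Calls equal to its own on all 16 arrays were found for 54 probe sets, 31 of them at the same levels throughout, the first by symbol being 1810010K12Rik, Afg3l1 and Akip1.

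Syt9 (chr7:107370349-107548656), a fast calcium sensor of striatal and limbic neurons, had 1 probe set, at level 2 on all 8 cerebellum and all 8 rest-of-brain arrays. Its calls carry no difference between brain parts, genotypes or sexes.

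Syt10 (chr15:89773714-89841980), which in the mouse acts in secretion of IGF-1 from olfactory bulb neurons, varied more than any of the other 17 probe sets except that of Cplx3. Its probe set 1450347_at was detected on 6 of 8 cerebellum and 7 of 8 rest-of-brain arrays, and on 6 of 8 KO and 7 of 8 WT arrays. It was at level 1 on KO male cerebellum replicate 1, and at level 0 on WT female cerebellum replicate 2 and KO female rest of the brain replicate 1. By stratum, it was detected on 2 of 2 KO and 1 of 2 WT arrays in the female cerebellum and 1 of 2 KO and 2 of 2 WT arrays in the male cerebellum. For the rest of the brain, these were 1 of 2 KO and 2 of 2 WT arrays in females, and 2 of 2 KO and 2 of 2 WT arrays in males. The groups overlapped in each stratum, the direction differed between the female and the male cerebellum, and that difference was not tested. With 13 arrays detected, the smallest exact p any split of 8 against 8 could give is 0.2, so its calls could show no difference between KO and WT or between brain parts. The WT female array without Syt10 is the one with 3 brain stem marker probe sets, against 16 to 19 on the other 3 female cerebellum arrays, all with Syt10 detected. The 4 male cerebellum arrays had 4 such probe sets each, and 3 of them detected Syt10, as did 7 of 8 rest-of-brain arrays with 4 to 10. A low count of these markers thus went with a detected call on most arrays. No probe set with a single symbol matched its calls on all 16 arrays, and the 15 that matched on 15 included Rpf1, Slc45a4 and Smc2.

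**Figure D3:**
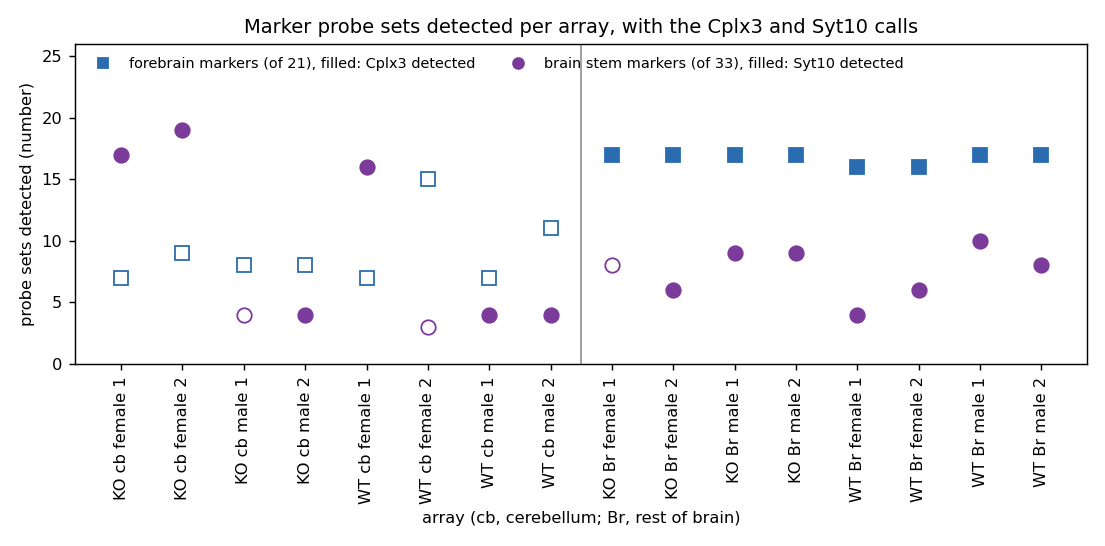
Number of forebrain marker probe sets (blue squares, of 21) and of brain stem and spinal cord marker probe sets (purple circles, of 33) detected on each array, cerebellum left of the line and rest of the brain right of it. Squares are filled where Cplx3 was detected, which is on all 8 rest-of-brain and 0 cerebellum arrays, and circles where Syt10 was detected. The WT female cerebellum replicate 2 has 15 forebrain probe sets with an open square.

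Syt6 (chr3:103575245-103645567), of the group of synaptotagmins that form dimers through disulfide bonds, was hardly seen. Its 4 probe sets gave 1 detected call in all, for 1426106_a_at on WT male cerebellum replicate 1, with a marginal call on KO female cerebellum replicate 2. This amounts to 1 of 8 cerebellum and 0 of 8 rest-of-brain arrays, or 0 of 8 KO and 1 of 8 WT arrays. The other 3 probe sets, 1420188_at, 1449766_at and 1449767_x_at, were detected on 0 of 16 arrays. A gene that is not detected may still be transcribed below the limit of the array, or in too few cells of a whole cerebellum or brain, and which of these holds here was not tested. The calls of 1426106_a_at matched those of 115 probe sets on all 16 arrays, 4 of them at the same levels, among which were Mup10, Ociad1 and Rhbdd3.

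Pvalb (chr15:78191112-78206400), the calcium buffer of fast-spiking interneurons and cerebellar Purkinje cells, had 1 probe set, at level 2 on all 8 cerebellum and all 8 rest-of-brain arrays. Nefh (chr11:4938754-4948064), the heavy neurofilament subunit of large axons, had 1 probe set as well, also at level 2 on all 16. Taking any detected probe set of a gene as enough, the 4 genes described as depending on PGC1α (Cplx1, Syt2, Pvalb and Nefh) were thus detected on all 8 KO and all 8 WT arrays. Such calls do not show whether their levels differed between KO and WT. The share of all genes under this rule was not counted, while 52.5% of single-symbol probe sets were detected on all arrays. Ppargc1a itself, which encodes PGC1α, had 5 probe sets, each detected on all 16 arrays. In the paper, the transcript carrying the deletion was still present in KO brain and the reference isoform was unaltered, so these calls check no genotype label.

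Between KO and WT, 0 of the 18 probe sets switched (detected on both arrays of one genotype and neither of the other) in any of the 4 strata of sex and brain part. Over the 45101 probe sets of the table, the female cerebellum had 335 (0.743%) switched toward KO and 320 (0.71%) toward WT, and the male cerebellum 141 (0.313%) toward KO and 357 (0.792%) toward WT. The female rest of the brain had 203 (0.45%) toward KO and 221 (0.49%) toward WT, and the male rest of the brain 260 (0.576%) toward KO and 202 (0.448%) toward WT. Switches shared by both sexes were rarer still, with 4 (0.00887%) toward KO and 13 (0.0288%) toward WT in the cerebellum and 7 (0.0155%) toward KO and 2 (0.00443%) toward WT in the rest of the brain. With background shares below 1% in each stratum, a count of 0 among 18 does not show that the genes were alike in KO and WT. Over all 16 arrays, 0 probe sets (0%) passed between 8 KO and 8 WT arrays (Fisher's exact test, adjusted over the table), and 38 (0.0843%) had an unadjusted p under 0.05, with 0 of the 18 among these. Between 8 female and 8 male arrays 0 passed as well, 129 (0.286%) had an unadjusted p under 0.05, and 2 (0.00443%) were detected on all female and 0 male arrays, against 8 (0.0177%, or 0.071% of those detected on some arrays) the other way. None of the 18 was among any of these. The switches between sexes, probe sets of Eif2s3y and Xist among them, had the smallest possible p and still did not pass. A probe set can pass over the table only if many others have a small p too. The 0 counts for genotype and sex therefore do not show a lack of difference.

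The 9 genes were set beside the rest of their families. Of 39 probe sets of 21 other synaptotagmins and related C2-domain proteins, 28 were detected on all 16 arrays, 7 on some and 4 on none. Syt5 and Syt17 had 1 probe set each that behaved as Cplx3 did, with 0 of 8 cerebellum and 8 of 8 rest-of-brain arrays (Fisher's exact test, adjusted p = 0.0501 over all probe sets and 0.0043 over the 3873), and these were the 2 called among the 5 of the family able to reach a p under 0.05. Syt5 is a synaptotagmin of dense-core vesicles, and Syt17 lacks the membrane anchor of the others. The second Syt17 probe set was detected on 6 of 8 cerebellum and 8 of 8 rest-of-brain arrays. Between genotypes, Sytl4, the Rab27 effector granuphilin, was detected in WT alone in the female rest of the brain through 1 of its probe sets, and Esyt3, which tethers the endoplasmic reticulum to the plasma membrane, in KO alone among male rest-of-brain arrays. The remaining complexin, Cplx4, a form known from the retina, had 1 probe set, detected on 0 of 16 arrays.

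**Figure D4:**
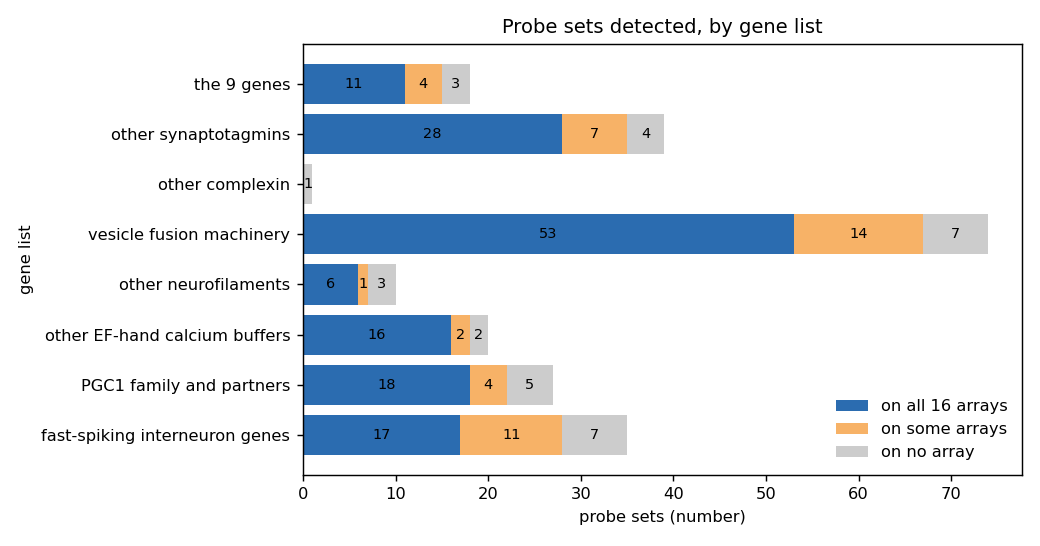
Number of probe sets (horizontal axis) of each gene list detected on all 16 arrays (blue), on some (orange) and on none (grey). The 9 genes have 11, 4 and 3, and the other synaptotagmins 28, 7 and 4.

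Among 74 probe sets of 29 genes of the vesicle fusion machinery, 53 were detected on all 16 arrays, 14 on some and 7 on none, and 0 of the 7 that could reach a p under 0.05 were called between the brain parts. Erc1, a protein of the presynaptic active zone, had 1 probe set detected in WT alone in the female rest of the brain. Other Erc1 probe sets were detected on all 16 arrays, and 1 more on 1 KO cerebellum array, so the switch is not one of the gene. The other neurofilament genes had 10 probe sets, 6 of them on all arrays, and 1 of Prph, the peripheral neuron intermediate filament, was detected in KO alone in the female rest of the brain. Other EF-hand calcium proteins had 20 probe sets, with 16 on all arrays. Of the 2 able to reach a p under 0.05, 1 of Ncs1, a neuronal calcium sensor, was called, a gene named after its values were seen. That probe set was detected on 2 of 8 cerebellum and 8 of 8 rest-of-brain arrays (Fisher's exact test, adjusted p = 0.0409 over the 3873). The other Ncs1 probe sets were detected on all 16 arrays or on none. PGC1 family members and their partner factors had 27 probe sets, with 18 on all arrays. Only 1 of the 27 was able to reach a p under 0.05, and it was not called.

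Pvalb and Syt2 are best known from fast-spiking interneurons. The list of fast-spiking interneuron genes also holds Gad1, Gad2, Sst, Vip and Tac1, which are not particular to those cells. It had 35 probe sets, of which 17 were detected on all arrays, 11 on some and 7 on none. On the cerebellum arrays 20 to 24 of the 35 were detected, against 24 to 28 on the rest-of-brain arrays. Lhx6, a transcription factor of forebrain interneurons, had 1 probe set that was detected on 0 of 8 cerebellum and 8 of 8 rest-of-brain arrays (Fisher's exact test, adjusted p = 0.0501 over all probe sets and 0.0043 over the 3873). The other of 2 called among 5 able to reach a p under 0.05 was of Hapln1, a link protein of perineuronal nets. That probe set was detected on 0 of 8 cerebellum and 7 of 8 rest-of-brain arrays (adjusted p = 0.0138 over the 3873, Fisher's exact test). Hapln1 was also named after its values were seen. Its other probe sets were detected on 5 of 8 cerebellum and 8 of 8 rest-of-brain arrays, or on all 16 arrays. Between genotypes, 1 further Lhx6 probe set and 1 of the potassium channel Kcna1 were detected in WT alone among the male rest-of-brain arrays, and 1 of the potassium channel Kcna2 among the female ones. Pvalb and the first 2 Syt2 probe sets were detected on every array where these varied. Other probe sets of Kcna1 and Kcna2 were detected on all 16 arrays, and 1 of Kcna2 on none, so their switches hold for single probe sets.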

How the data were processed

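Total RNA of 16 samples was hybridised to Affymetrix arrays. The methods name the MAS5 algorithm, as do the submitters' processing notes. They give a human array, although the probe sets carry names of a mouse design. The results of the study describe RMA-normalised intensities. The deposited values belong to no usual unit: the authors' table holds 5 coded levels (other), of which 59.7% are level 2, and how they were written is not given in the sources used here. Gene symbols came from the platform annotation, with 932 probe sets of several symbols and 9211 unnamed here left out of gene lists.

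Detected was a value above 5e-38. Each probe set was tested with Fisher's exact test, two-sided, on 8 against 8 arrays, adjusted by Benjamini-Hochberg across the 45101 probe sets, with a threshold of 0.05, and again across the 3873 probe sets able to reach an unadjusted p under 0.05. Between 2 and 2 arrays the smallest exact p is 0.333, so no test was made there. The number of arrays limits the precision. P-values measure the spread between arrays, which may be partly technical. Replicates of a group shared 88.8% to 91.1% of levels.

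The members, lists and tests were chosen with earlier results of these data known. All probe sets of the 9 genes are named. Other genes are named where a probe set switched completely between brain parts, or between genotypes within a sex and brain part, up to 4 per list in alphabetical order, besides up to 3 genes with the most arrays of like call for each variable probe set. Ncs1 and Hapln1 fall outside this rule, as do genes named only to describe a list or to check the calls. The tests were checked on simulated calls. Where switches were planted, they outnumbered those in the real calls, so their recovery does not show that the real number could pass over the table. Alternatives were another reading of marginal or negative levels, counting by gene, pairing by replicate number, subsets of arrays and each array left out. Fold changes were not analysed here. Tests were run in scipy 1.17.1 under Python 3.11.15 with pandas 2.3.3 and numpy 2.4.6, and plots drawn in matplotlib 3.10.9.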

Additional observations from a re-analysis of the deposited data

How the results depend on the processing

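Between the brain parts, 0 probe sets were called over the whole table, a count that rests on the coarse p-values of 8 against 8 arrays. It was 662 over the probe sets able to reach an unadjusted p under 0.05, 132 without probe sets holding a negative level and 61 by gene. Leaving out each array gave 144 to 257 calls, the highest without WT female cerebellum replicate 2. It was 0 with marginal calls counted as detected. In KO, WT, male or female arrays alone, and with arrays paired by replicate number, it was 0 as well, but there the smallest possible p (0.0286 for 4 against 4 arrays) could not pass after adjustment over the table, so these runs say nothing about stability. Cplx3 was the 1 probe set of the 9 genes called (1 against 0) over the probe sets able to reach that p, without probe sets holding a negative level (adjusted p = 0.04995), by gene (adjusted p = 0.0464), without cross-hybridising probe sets (adjusted p = 0.0481) and in each run with 1 array left out, 1 in all 16 (Fisher's exact test, adjusted p = 0.0273 to 0.0487). Each of these runs left Cplx3 at the smallest p its arrays allow, so passing depended only on how many probe sets were tested and tied. These passes therefore do not show stability. Over all alternatives for Cplx3, those chosen after seeing the data included, the adjusted p ran from 0.00288 to 1. With marginal calls counted as detected, 0 probe sets of the 9 genes switched between the brain parts, against 1 otherwise.

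Same-numbered arrays showed little common deviation (correlations of -0.018 to 0.0647 over 8 pairs of groups). Only the pairs between brain parts (-0.018 to 0.0434) could share mice, as KO and WT are different mice. Calls in 2 tissues of 1 mouse need not deviate together, so shared mice are not excluded. The replicate number was used as a pairing in alternative runs only. With the replicate block, the exact sign test over 8 pairs called 0 probe sets between brain parts, genotypes and sexes, and Cplx3 had an adjusted p of 1, or 0.154 over the 3873 probe sets, where 0 were called. This run, and those over the limited probe sets with 1 array left out (705 to 986 calls, Cplx3 at an adjusted p of 0.00288 to 0.00515, Fisher's exact test), were chosen after seeing the data. In each of them Cplx3 had the smallest p its arrays allow, so they do not show whether its difference is stable.

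Between genotypes and between sexes, all alternatives gave 0 calls. For those on 4 against 4 arrays and for the replicate block this was fixed by the smallest p they allow, and it says nothing about stability. Nor do the other alternatives show a lack of difference, as a call after adjustment needs many small p-values. With 1 array left out, the count of switched probe sets of the 9 genes within a sex and brain part ran from 0 to 1, in the female cerebellum without WT replicate 1 (Syt10), in the male cerebellum without WT replicate 2 (Syt6) or KO replicate 2 (Syt10), in females' rest of the brain without KO replicate 2 (Syt10) and in that of males without KO replicate 1 (Syt2).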
